A study of Mus musculus with 5 samples.

Results

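The 10 genes described here belong to the bone morphogenetic protein (BMP) pathway and were taken by name: the ligands Bmp2, Bmp4 and Bmp7, the receptor Bmpr1a, the secreted antagonist Grem1, the inhibitory SMADs Smad6 and Smad7, and the ID genes Id1, Id2 and Id3. They were 10 of 19938 genes measured, and each was read by 1 probe set. ESC-like cells grown back from teratomas were compared with parental embryonic stem cells (ESCs). Of the 10 genes, 4 (Bmp4, Smad6, Id1 and Id2) were lower by over 1.5-fold in all 4 ESC-like arrays, where 2.5% of all genes were. Their folds lay between 1.51 and 3.20, with the co-injection arrays averaged. Both the genes and this threshold were chosen with results of these data known. Grem1 separated the ESC-like populations from each other: it was 7.91-fold higher than in parental ESCs after heterologous injection, 2.06-fold higher after homologous injection, and below the parental value in both co-injection arrays.

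BMP ligands bind pairs of type I and type II receptors, which phosphorylate SMAD1, SMAD5 and SMAD9. These enter the nucleus with SMAD4 and switch on targets that include the ID genes and the inhibitory SMADs, while secreted proteins such as gremlin, noggin and follistatin hold the ligand away from its receptor. ID proteins bind E proteins and keep them from pairing with lineage-specific partners, and in mouse ESCs grown with leukemia inhibitory factor (LIF) BMP4 and the ID proteins are known to sustain self-renewal.

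RNA of 5 cell populations had been hybridized to Affymetrix Mouse Gene 1.0 ST arrays. The parental population was a B6CBAF1 ESC line before any injection, and this 1 line was injected in every case. The other populations were cultured from teratomas that this line formed under the skin of B6CBAF1 recipients (homologous, 1 array) or of B6D2F1 recipients (heterologous, 1 array). A last set came from B6D2F1 recipients given the ESCs together with B6D2F1 fetal fibroblasts (co-injection, n = 2). Its arrays are called batch 1 and batch 2, words that the study's text sets after the fibroblasts. In the study, heterologous injection of ESCs alone formed only 1 teratoma, while all homologous injections and most co-injections formed one. The heterologous array thus stands for 1 teratoma. Neither co-injection array is stated to come from a teratoma of its own. All populations were grown on inactivated ICR fibroblast feeders with LIF and serum. The study's methods give the teratoma-derived cells more LIF than the parental ESCs, whereas the labels give the same concentration for all. If the methods hold for the arrayed cells, LIF dose cannot be told apart from injection in any comparison with parental ESCs. A population expanded from dissociated tissue can hold cells other than the injected line, and in such bulk RNA fewer cells of a type and less RNA per cell cannot be told apart. The study reports that microsatellites of the ESC-like cells matched those of parental ESCs. It does not state how small a share of other cells this would have shown.

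Values are deposited log2 intensities, on which a difference of 1 is 2-fold, and they are compared between arrays and not between genes. Medians of the 5 arrays lay between 7.48 and 7.54. Between the co-injection arrays the absolute log2 difference of a gene had a median of 0.07 and a 95th percentile of 0.25, which is the only replicate spread in the series, and the 10 genes differed there by 0.03 to 0.24. The spread of this pair does not measure that between cultures or teratomas of the other conditions. With 1 array in each other condition the differences have no replicate check, and they are given as values; a limma fit, which takes its spread from the co-injection pair, is given with the alternatives. Every difference from parental ESCs uses the same parental array, so an error in that array would move all of them together. As to the labelled cell type, the pluripotency gene Pou5f1 read between 12.29 and 12.60 in all 5 arrays, but it is 1 of 16 pluripotency markers. Of these 16, 3, 7 and 2 were over 2-fold lower than in parental ESCs in homologous, heterologous and co-injection cells, and 0 were higher. Of all genes, 1.6%, 1.95% and 1.44% were lower. Of 20 fibroblast markers, 2, 14 and 0 were over 2-fold higher, with 1.45%, 3.98% and 0.647% of all genes. Of 10 macrophage markers, 1 (Lyz2) was over 2-fold higher than in parental ESCs in heterologous cells and 0 in homologous or co-injection cells, while 2, 1 and 1 were lower in homologous, heterologous and co-injection cells. The shares of all genes given for the other markers apply here too.

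Promoters of 6 of the 10 genes (Bmp4, Bmpr1a, Grem1, Smad6, Id2 and Id3) were found in RefSeq for GRCm38.p6, each as 250 bases before and 50 after the annotated start. They were searched on both strands for GGCGCC, a GC-rich element bound by SMAD1 and SMAD5 that reads alike on either strand, and for GTCT, the core SMAD element, written AGAC on the other strand. The windows shown are those of Grem1 (chr2:113758599-113758898, minus strand), Bmp4 (chr14:46390620-46390919, minus strand), Id2 (chr12:25096043-25096342, minus strand) and Id3 (chr4:136143572-136143871, plus strand), because Grem1 differed most between ESC-like populations, Bmp4 and Id2 were low in all of them, and Id3 was not; capitals mark the matches.
Grem1: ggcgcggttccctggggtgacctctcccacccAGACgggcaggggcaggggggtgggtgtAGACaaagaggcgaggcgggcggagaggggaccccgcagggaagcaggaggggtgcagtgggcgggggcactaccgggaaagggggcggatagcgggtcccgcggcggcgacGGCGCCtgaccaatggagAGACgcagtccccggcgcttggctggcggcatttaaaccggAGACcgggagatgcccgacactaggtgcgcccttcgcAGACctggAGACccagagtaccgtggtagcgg
Bmp4: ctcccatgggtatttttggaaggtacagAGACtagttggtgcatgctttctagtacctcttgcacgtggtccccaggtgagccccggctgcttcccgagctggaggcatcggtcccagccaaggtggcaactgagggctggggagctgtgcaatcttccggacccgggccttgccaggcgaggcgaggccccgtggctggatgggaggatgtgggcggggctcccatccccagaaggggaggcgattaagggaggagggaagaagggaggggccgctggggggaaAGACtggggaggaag
Id2: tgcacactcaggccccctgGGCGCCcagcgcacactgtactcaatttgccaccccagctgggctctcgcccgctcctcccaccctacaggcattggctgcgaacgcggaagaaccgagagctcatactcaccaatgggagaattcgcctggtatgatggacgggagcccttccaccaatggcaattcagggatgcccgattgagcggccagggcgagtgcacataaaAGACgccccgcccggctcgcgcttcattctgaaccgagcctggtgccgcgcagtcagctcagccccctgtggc
Id3: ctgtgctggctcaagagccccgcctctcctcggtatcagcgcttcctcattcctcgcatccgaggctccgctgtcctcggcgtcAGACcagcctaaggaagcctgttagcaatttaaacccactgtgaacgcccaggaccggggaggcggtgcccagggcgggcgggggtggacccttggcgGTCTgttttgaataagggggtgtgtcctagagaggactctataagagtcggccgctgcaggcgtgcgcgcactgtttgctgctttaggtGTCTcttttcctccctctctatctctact
Grem1 and Id2 each held 1 GGCGCC, starting at position -78 and -231 from the annotated start, and Bmp4 and Id3 held 0. Bmpr1a held 1 and Smad6 held 0, and 12.0% of 27025 promoter windows of the same length held at least 1. The short GTCT core was found 6 times in Grem1, 3 times in Id3, 2 times in Bmp4 and 1 time in Id2, and 88.0% of all windows held it. All 4 windows thus held the core, both those of the genes that were low in every ESC-like array and that of Id3. GC content was 70.7% in Grem1, 64% in Bmp4, 63.3% in Id2 and 60% in Id3, above the median of 52.7% over all windows.

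Of the ligands, Bmp4 had the lower values in every ESC-like array. It read 11.41 in parental ESCs, 10.52 in homologous, 9.94 in heterologous, and 10.57 and 10.60 in the co-injection arrays. The parental value stood above all 4 others, and the heterologous value stood lowest. The ratio to parental ESCs was 1.86-fold lower in homologous, 2.78-fold lower in heterologous and 1.78-fold lower in the co-injection mean of 10.59 ± 0.02 (SD, n = 2). Homologous and co-injection cells differed by only 0.07 on the log2 scale, which is within the 95% range of the co-injection pair.

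Bmp2, a ligand close to Bmp4 in sequence, was high in 1 array alone. Its values were 6.01 in parental ESCs, 5.82 in homologous and 7.19 in heterologous cells, and of the co-injection arrays batch 2 read 6.08 and batch 1 differed from parental ESCs by -0.01. The heterologous value was 2.26-fold above the parental one and 2.58-fold above the homologous one. Its mean lay below 7.49, the median of all values on the arrays, where the other 9 genes lay above it.

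Bmp7, which acts through type I receptors that overlap with those of Bmp4, was lowest in parental ESCs, where Bmp4 was highest. It read 8.29 in parental ESCs, 9.06 in homologous, 8.52 in heterologous, and 8.75 and 8.86 in co-injection cells. Homologous cells were highest, at 1.71-fold above parental ESCs, and the co-injection mean was 1.43-fold above the parental value. The heterologous difference of 0.23 did not exceed the 95% range of the co-injection pair.

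The receptor itself was level. Bmpr1a, a type I receptor for Bmp2 and Bmp4, read 10.62 in parental ESCs, 10.72 in homologous, 10.74 in heterologous, and 10.64 and 10.58 in co-injection cells, a range of 0.16 over all 5 arrays. No pair of conditions differed by more than the co-injection arrays did at the 95th percentile of genes.

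Grem1 encodes gremlin, which binds Bmp2, Bmp4 and Bmp7. Its values were 8.14 in parental ESCs, 9.18 in homologous, 11.12 in heterologous, and 7.70 and 7.94 in the co-injection arrays. The heterologous array stood far above the rest, the homologous array came next, and both co-injection arrays stood below parental ESCs. The heterologous difference of 2.98 from parental ESCs was the 26th highest of 19938 genes. Co-injection cells (7.82 ± 0.17, SD, n = 2) were 9.85-fold below heterologous cells and 2.56-fold below homologous cells. From parental ESCs they differed by -0.44 in batch 1 and -0.19 in batch 2, and only the first of these exceeded the 95% range of the co-injection pair.

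**Figure D1:**
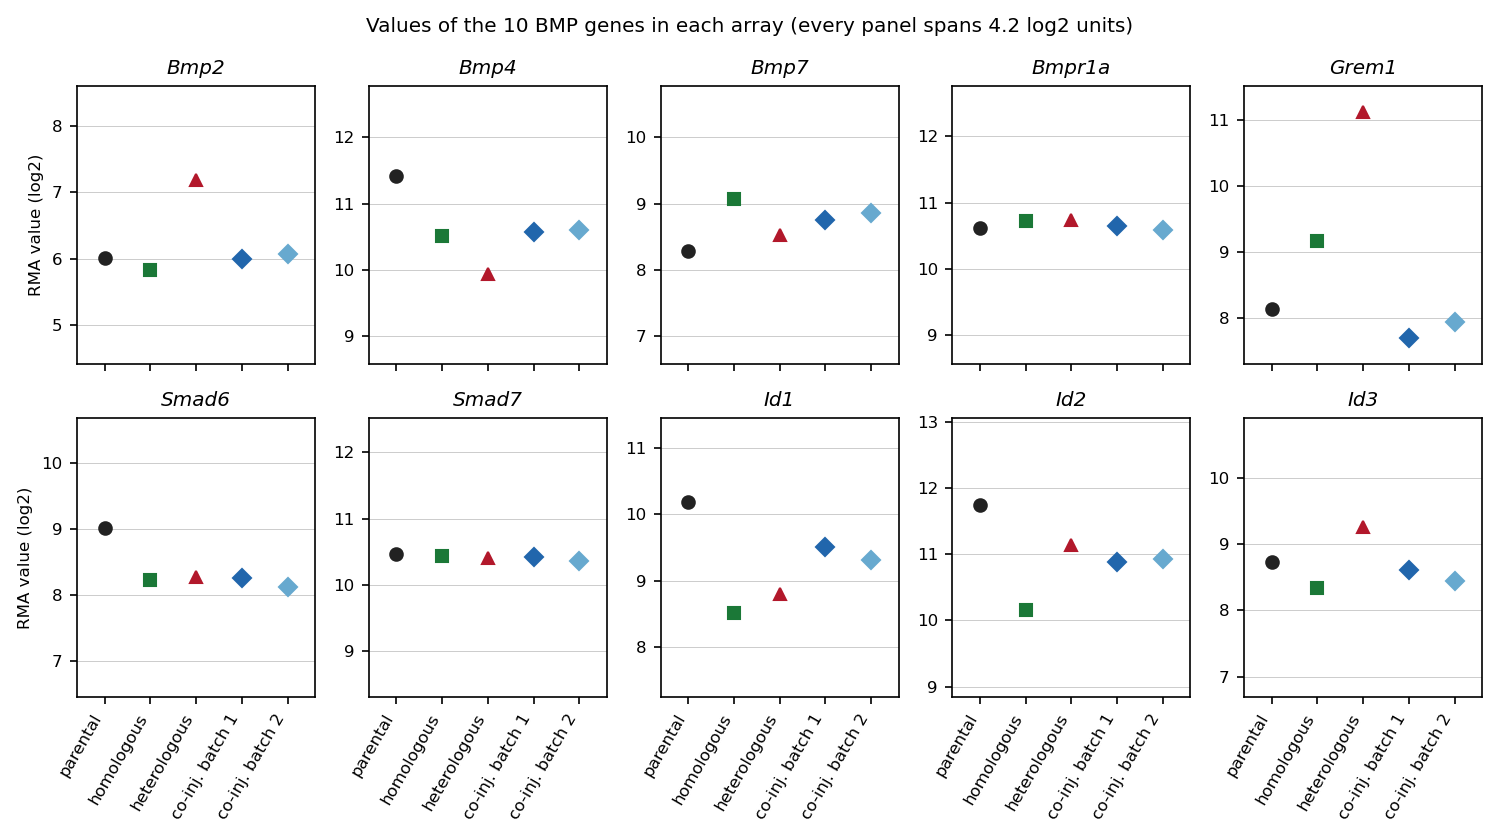
RMA log2 value (vertical axis) of each of the 10 genes in each of the 5 arrays (horizontal axis); 1 point is 1 array, and all panels span the same number of log2 units. Grem1 reached 11.12 in the heterologous array against 8.14 in parental ESCs, parental ESCs held the highest value of Bmp4, Smad6, Id1 and Id2, and Bmpr1a and Smad7 were level.

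Markers of fibroblasts moved with Grem1 across the arrays. Of 20 markers measured, 2 were over 2-fold higher than in parental ESCs in homologous cells, 14 in heterologous cells and 0 in the co-injection mean, where 3 (Fbln2, Prrx1 and Thy1) were lower. Of all genes, 1.45%, 3.98% and 0.647% were higher in these comparisons, and 1.44% were lower in the co-injection mean. The mean log2 value of the whole list was 7.54 in parental ESCs, 7.90 in homologous, 9.13 in heterologous, and 7.22 and 7.19 in co-injection cells. The markers Postn and Pdgfrb differed most in heterologous cells, by 3.30 and 3.10, while Tcf21 and Meox2 stayed at -0.27 and 0.00. Of 8 contractile cell markers, 6 were over 2-fold higher in heterologous cells, where 3.98% of all genes were. The part of these cells in the Grem1 and Bmp2 values was not tested.

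**Figure D2:**
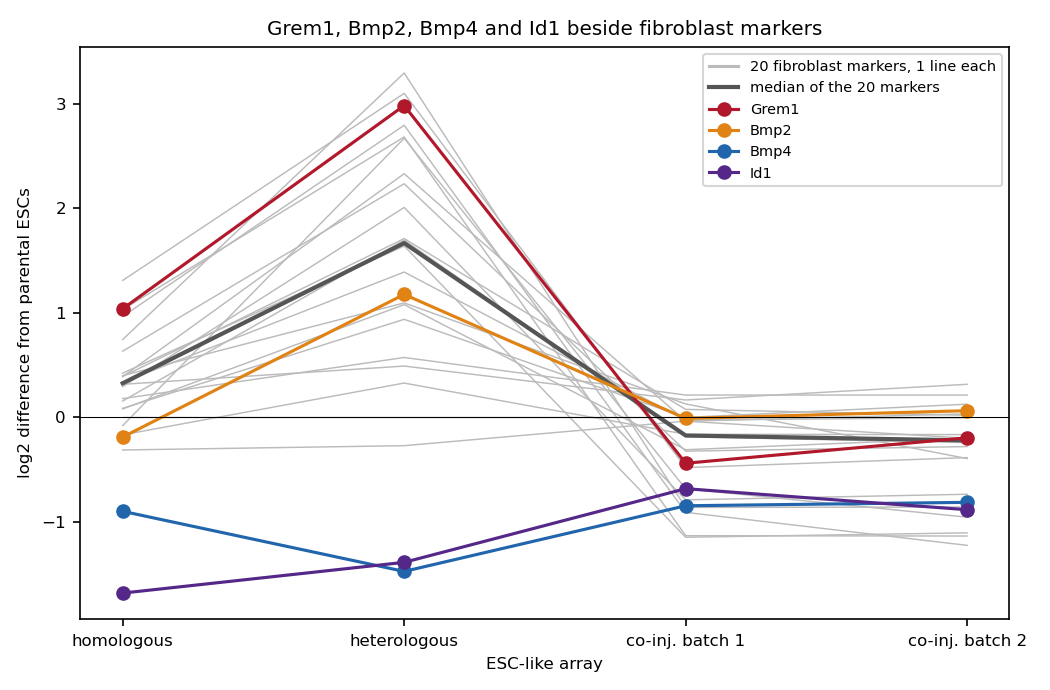
Log2 difference from parental ESCs (vertical axis) in the 4 ESC-like arrays (horizontal axis) for Grem1, Bmp2, Bmp4, Id1, the 20 fibroblast markers (thin lines, 1 a gene) and their median (thick line); lines only join the values of 1 gene. Grem1 at 2.98 and the marker median at 1.67 both peaked in heterologous cells, where Bmp4 was at its lowest difference of -1.47.

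The 2 inhibitory SMADs parted. Smad6, which blocks BMP type I receptor signalling and is itself induced by it, read 9.02 in parental ESCs, 8.23 in homologous, 8.27 in heterologous, and 8.27 and 8.12 in co-injection cells. All 4 ESC-like arrays lay between 8.12 and 8.27, below the parental value by 1.72-fold in homologous, 1.68-fold in heterologous and 1.77-fold in the co-injection mean. Smad7, which blocks both the BMP and the TGF-beta branch, read 10.47 in parental ESCs, 10.43 in homologous, 10.41 in heterologous, and 10.43 and 10.36 in co-injection cells. Its range of 0.11 was the smallest of the 10 genes.

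Id1 was highest in parental ESCs. It read 10.19 there, 8.51 in homologous, 8.80 in heterologous, and 9.51 and 9.31 in co-injection cells. Cells from ESCs injected alone stood lowest and co-injection cells stood between them and parental ESCs. The fold was 3.20 below parental ESCs in homologous, 2.61 in heterologous and 1.72 in the co-injection mean of 9.41 ± 0.14 (SD, n = 2). Against homologous cells, co-injection cells were 1.86-fold higher, the 20th highest difference of 19938 genes in a comparison where few genes differed.

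Id2 shared the high parental value but not the order of the ESC-like arrays. It read 11.74 in parental ESCs, 10.16 in homologous, 11.14 in heterologous, and 10.88 and 10.93 in co-injection cells. Homologous cells stood lowest, 2.98-fold below parental ESCs, whereas heterologous cells were 1.51-fold and the co-injection mean 1.78-fold below. Co-injection cells were 1.68-fold above homologous cells, the 28th highest difference in that comparison, and heterologous cells were 1.97-fold above them.

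Id3 did not go with the other ID genes. It read 8.73 in parental ESCs, 8.34 in homologous, 9.26 in heterologous, and 8.61 and 8.44 in co-injection cells. Only the heterologous array exceeded the parental value, by 1.44-fold, and homologous cells were 1.31-fold below it. The co-injection mean of 8.53 ± 0.12 (SD, n = 2) differed from parental ESCs by -0.20, within the 95% range of the co-injection pair.

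**Figure D3:**
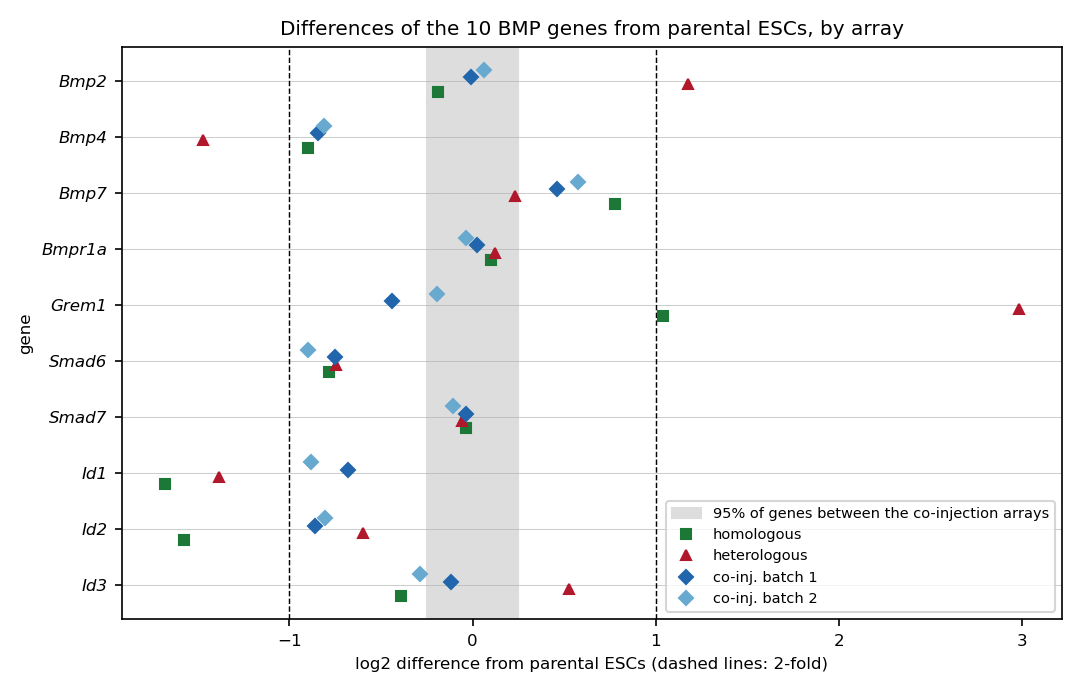
Log2 difference of each ESC-like array from parental ESCs (horizontal axis) for the 10 genes (vertical axis); the grey band holds 95% of genes between the co-injection arrays and dashed lines mark 2-fold. All 4 ESC-like arrays lie left of the band for Bmp4, Smad6, Id1 and Id2, and inside it for Bmpr1a and Smad7.

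Counted over the 2-fold line, homologous cells had 1 of the 10 genes higher than parental ESCs (Grem1), where 1.45% of all genes were, and 2 lower (Id1 and Id2), where 1.6% were. Heterologous cells had 2 higher (Bmp2 and Grem1) against 3.98% of all genes, and 2 lower (Bmp4 and Id1) against 1.95%. Co-injection cells had 0 higher and 0 lower, with 0.647% and 1.44% of all genes. The median difference of the 10 genes was -0.29, 0.03 and -0.26 in these comparisons, beside -0.01, -0.04 and 0.04 over all genes.

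Among the ESC-like populations, heterologous cells had 2 of the 10 genes over 2-fold higher than homologous cells (Bmp2 and Grem1) where 2.41% of all genes were, and 0 lower where 0.647% were. Co-injection cells against heterologous cells had 0 higher (0.361% of all genes) and 2 lower (Bmp2 and Grem1, 2.99%). Against homologous cells they had 0 higher (0.0752%) and 1 lower (Grem1, 0.351%). Id2, at 0.98 in heterologous against homologous cells, lay just inside the line and crossed it at 1.01 when cyclic loess was run on the values.

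A second count, set up after the values had been seen, asked which genes passed 1.5-fold in 1 direction in each of the 4 ESC-like arrays. Of the 10 genes, 4 were lower in each (Bmp4, Smad6, Id1 and Id2) where 2.5% of all genes were, and 0 were higher where 1.49% were. Without the heterologous array the same 4 were lower, against 3.07% of all genes, and 0 higher, against 2.08%. With cyclic loess 3 were lower, since Id2 then stood at -0.56 in heterologous cells, short of 1.5-fold.

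Pluripotency markers were lower in the same arrays as Bmp4, Id1 and Id2. Of 16 markers, 3 were over 2-fold lower than in parental ESCs in homologous cells, 7 in heterologous cells (Esrrb, Klf2, Klf4, Prdm14, Tbx3, Tfcp2l1 and Zfp42) and 2 in co-injection cells, and 0 were over 2-fold higher in any of them. Of all genes, 1.6%, 1.95% and 1.44% were lower in these comparisons, and 1.45%, 3.98% and 0.647% were higher. The median difference of the list was -0.55, -0.83 and -0.40. In homologous cells the lowest of the list was Tbx3 at -3.04. In heterologous cells Prdm14 and Tbx3, transcription factors of naive pluripotency, were the lowest of the list at -2.53 and -2.32. Lin28a and Tdgf1 were the highest in that array, at 0.41 and 0.01. The part of this shift in the values of the BMP genes was not tested.

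Since cultured ESC-like cells can carry an abnormal number of chromosomes, the genes around each of the 10 were examined in the GRCm38.p6 annotation. Bmp2, Bmp7, Grem1 and Id1 lie on chromosome 2, Bmp4 and Bmpr1a on chromosome 14, and the others on chromosomes 4, 9, 12 and 18. The median difference of the 50 nearest expressed genes from parental ESCs lay between -0.13 and 0.04 for all 10 genes in the 3 comparisons. The largest of these shifts surrounded Id1, whose neighbours had a median of -0.13 in homologous and -0.11 in heterologous cells beside its own -1.68 and -1.39. For Id2 the median of chromosome 12 was 0.24 in heterologous cells, but that of its own neighbours was -0.02.

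Beyond the 10 genes, 80 others of the pathway were measured, in 6 lists by role. Over 2-fold from parental ESCs were 3 higher and 3 lower in homologous cells, where 1.45% and 1.6% of all genes were. In heterologous cells 9 were higher and 3 lower, against 3.98% and 1.95% of all genes. The co-injection mean had 1 higher and 1 lower, against 0.647% and 1.44%. The median difference of the 80 was -0.04, 0.00 and 0.04. None of the 14 other ligands passed the line, Gdf10 and Gdf6 having the highest values in homologous and heterologous cells (0.04 and 0.09). Bmp8a, made by the extraembryonic ectoderm and germ cells, was lowest among them, at -0.96 in homologous, -0.54 in heterologous and -0.61 in co-injection cells.

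Of 10 other receptors and co-receptors, Bmpr1b alone passed 2-fold against parental ESCs, at 1.01 in heterologous cells. It read 5.67 in parental ESCs and 6.67 in heterologous cells, both below 7.49, the median of all values, and counts among the dim probe sets. The receptor list had a median of 0.50 in heterologous cells beside 0.16 in homologous and 0.02 in co-injection cells. Like Grem1, 5 of 18 other extracellular antagonists and modulators were over 2-fold higher in heterologous cells, where 3.98% of all genes were. In homologous and co-injection cells 0 of 18 were, against 1.45% and 0.647% of all genes. The 5 in heterologous cells included Bmp1 (2.36), a protease that cleaves procollagen and the BMP antagonist chordin, and its relative Tll1 (1.60). The others were the activin and BMP binder Fst (2.01), Fstl1 (2.15) and Nbl1 (1.41), which belongs to the same family as gremlin. For Bmp1 the study also ran quantitative RT-PCR in heterologous, co-injection and homologous cells. It reports a pattern similar to the arrays, with a difference that fell short of its significance level. The antagonists best known from the embryo, Nog, Chrd and Cer1, stayed between -0.14 and 0.07. The fibroblast markers given beside Grem1 were highest in the same array.

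Among 13 SMADs of the BMP branch and their regulators, Skil, a SMAD corepressor, was higher in homologous cells (1.12) and stood at 0.81 in heterologous and 0.88 in co-injection cells. Zeb2, which binds SMADs and represses epithelial genes, was at 2.49 in heterologous cells, 0.92 in homologous and 0.38 in co-injection cells. Smad1 read 8.32 in parental ESCs and 8.81 in each of the 4 ESC-like arrays, and the neighbours of Smad1 on chromosome 8 had median differences of 0.29, 0.08 and 0.26 in homologous, heterologous and co-injection cells. Its heterologous and co-injection values were identical. Such ties between the co-injection arrays occurred for 5.9% of all genes, so this agreement is not a measure of precision. Smad4, the partner of all these SMADs, and Smad5 stayed between -0.12 and 0.25.

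Of 18 further genes that BMP signalling is known to induce, 3, 3 and 1 were over 2-fold lower in homologous, heterologous and co-injection cells than in parental ESCs. Of all genes, 1.6%, 1.95% and 1.44% were lower. In the same order 1, 0 and 0 of the 18 were higher, and the list median was -0.17, -0.10 and 0.01. The lower genes were Dusp9, Gata3 and Tbx20, of which only Gata3 passed in co-injection cells. Gata3, a transcription factor of trophoblast and T cells, was at -1.86 in homologous, -1.14 in heterologous and -1.16 in co-injection cells, and Tbx20, a T-box factor of the heart, at -1.55, -1.19 and -0.89. Dusp9, a phosphatase that BMP induces in ESCs to restrain ERK signalling, was at -1.35, -1.61 and -0.89. It is X-linked, and the median over expressed X-linked genes was -0.44, -0.47 and -0.50, with -0.56, -0.50 and -0.60 among its 50 neighbours. The part of this shift along the chromosome in Dusp9 was not tested. Prdm1, a repressor known from germ cell specification, passed 2-fold in homologous cells (1.09) and stood at -0.70 in heterologous and 0.42 in co-injection cells. Id4, Atoh8 and Nkx2-5 stayed between -0.09 and 0.11 in the 3 comparisons.

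**Figure D4:**
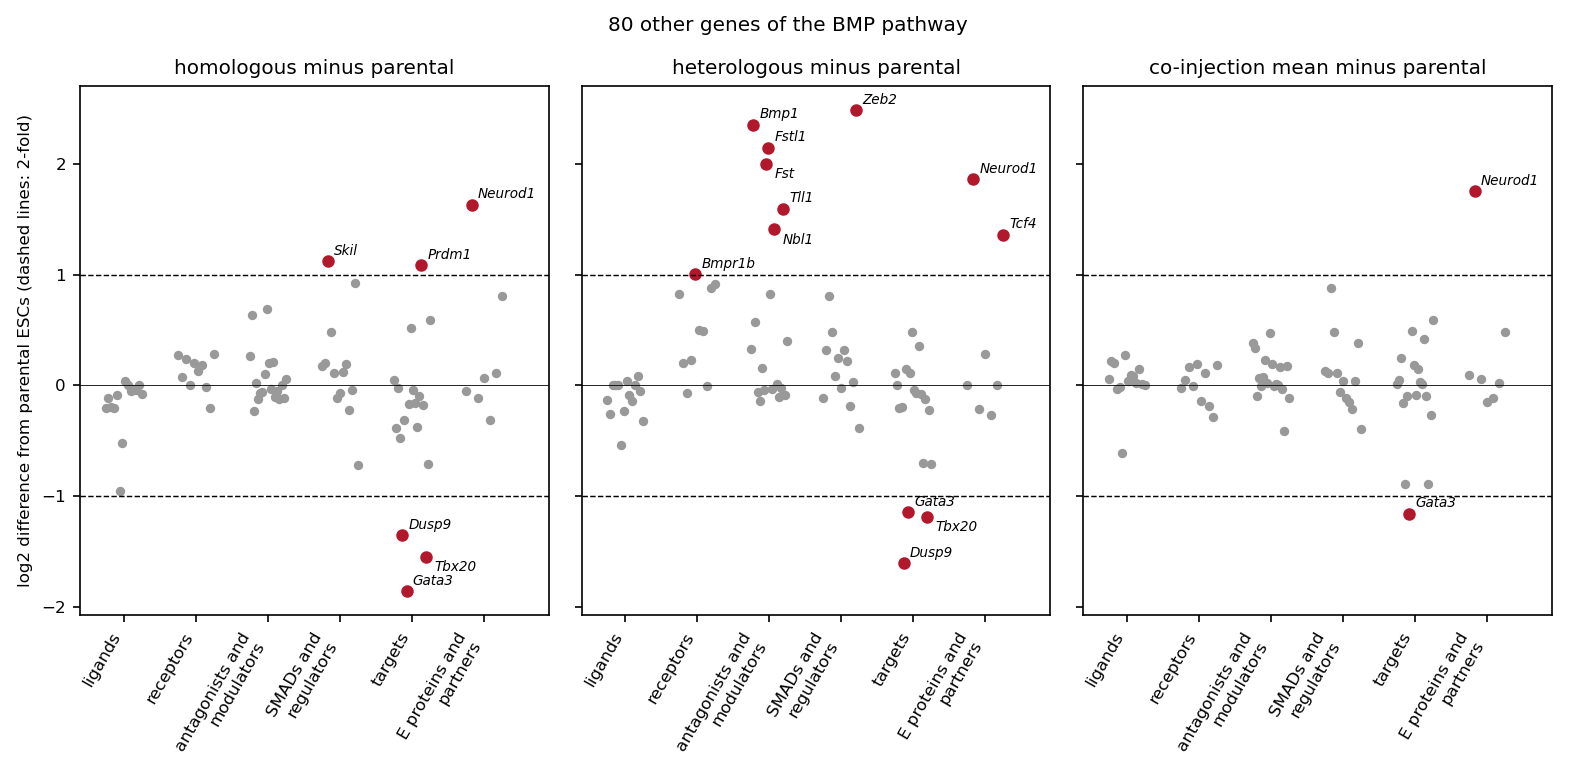
Log2 difference from parental ESCs (vertical axis) for the 80 other genes of the pathway, 1 point a gene, in 6 lists by role (horizontal axis); red points with names passed 2-fold. In heterologous cells 5 antagonists and modulators passed upward, with Bmp1 at 2.36, and none did in the other 2 comparisons.

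The list of E proteins, which ID proteins bind, and their partners held 7 genes. Neurod1, a neural partner of the E proteins, was higher in all ESC-like cells, at 1.63 in homologous, 1.86 in heterologous and 1.76 in the co-injection mean. Tcf4 was at 1.36 in heterologous cells and 0.81 in homologous cells. Tcf3, an E protein gene expressed in many tissues, stayed between 0.00 and 0.12.

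For the 5 genes whose values spanned over 1 on the log2 scale, the genes most like them over the 5 arrays were sought by the root mean square distance between centred profiles, among 1637 genes that also spanned over 1. Nearest to Grem1 were Ccdc80 (distance 0.118), Prss23 (0.141) and Pdgfrb (0.155), the last of which is on the fibroblast list. Nearest to Bmp2 were 5730596B20Rik (0.0411), Foxf2 (0.0530) and Cinp (0.0706). Nearest to Bmp4 were Cd37 (0.0369), Ankrd45 (0.0484) and Fancd2os (0.0548). Id1 was closest to Foxd3 (0.115), Gsta3 (0.131) and Tbx20 (0.135), and Id2 to R3hdml (0.0683), Sall3 (0.121) and Dusp27 (0.124). These distances rest on 5 arrays and are a description only.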

How the data were processed

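RNA of 5 cultures was measured on Affymetrix Mouse Gene 1.0 ST arrays. The authors extracted intensities with GCOS, applied the robust multi-array average (RMA) and deposited log2 values for 35556 probe sets per array; their versions and a genome build for the array were not given in the sources used here, and nothing was normalized further. RMA draws arrays together, and the number of arrays limits the precision of every value.

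Genes were named from the platform annotation, for the 21789 probe sets with exactly 1 symbol, by the brightest probe set of each of 19938 genes. Arrays were grouped by their titles. Differences are log2 values of 1 array, or the mean of both co-injection arrays, minus another, counted past 2-fold, the rule of the study, without a test; limma, below, was an alternative. The members and lists were chosen with earlier results of these data known. All members were named; of other pathway lists, genes past 2-fold from parental ESCs, or the highest and lowest where a list had none; of marker lists, the 2 highest and lowest where described. Others named with values (Nog, Chrd, Cer1, Smad1, Smad4, Smad5, Id4, Atoh8, Nkx2-5, Tcf3, Pou5f1, Lyz2) were picked with their values in view.

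Alternatives were thresholds of 1.5-fold and 3-fold, leaving out probe sets dimmer than the median of 7.49, and cyclic loess. Others were the mean over probe sets of a gene, leaving out each co-injection array, and limma 3.58.1 in R 4.3.3. The limma fit had 1 residual and 0.818 prior degrees of freedom, with Benjamini-Hochberg adjustment over all 35556 probe sets. The count over 4 arrays and its variants were added after the data were seen. On simulated data the fold rule was first tested for recovery of known changes. The limma fit was checked there only for returning the same differences, not for its calls. Promoters came from RefSeq, GRCm38.p6. Python 3.11.15, numpy 2.4.6, pandas 2.3.3 and matplotlib 3.10.9 were used.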

Additional observations from a re-analysis of the deposited data

Results flagged for a closer look

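Grem1, the secreted BMP antagonist, moved in opposite directions from the parental value in different ESC-like cells: its log2 difference was 2.98 in heterologous and 1.04 in homologous cells, but -0.44 and -0.19 in the co-injection arrays of batch 1 and batch 2. Id3 also took opposite directions, with -0.39 in homologous and 0.53 in heterologous cells. These were the members for which all arrays of 1 condition lay on one side of parental ESCs and all arrays of another on the opposite side, with both means beyond 0.25, the 95th percentile of the difference between the co-injection arrays. The rule itself makes no test. In the limma fit, on 1 residual degree of freedom, the adjusted p of Grem1 was 0.146 for co-injection against heterologous and 0.327 for co-injection against homologous cells, and that of Id3 was 0.208 for heterologous against homologous cells, so none passed 0.05. Both genes are read against the same parental array.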

How the results depend on the processing

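The counts past 2-fold depended on the threshold. At 1.5-fold, 6 of the 10 genes passed in homologous against parental cells (3 at 2-fold), 6 in heterologous (4 at 2-fold) and 4 in co-injection against parental cells (0 at 2-fold), where 9.51%, 13.2% and 6.91% of all genes did. Among ESC-like cells, 4 passed it in heterologous against homologous, 5 in co-injection against heterologous and 3 in co-injection against homologous cells, with 8.67%, 8.02% and 1.47% of all genes. At 3-fold, 1, 1 and 0 passed against parental cells (0.792%, 2.23% and 0.542% of all genes), then 1, 1 and 0 among ESC-like cells (0.908%, 1.37% and 0.115%). Leaving out dim probe sets removed Bmp2 and left 1 in heterologous against homologous and 1 in co-injection against heterologous cells. Of the 80 other genes, 14, 19 and 7 passed 1.5-fold against parental cells (6, 12 and 2 at 2-fold), and 15, 17 and 5 among ESC-like cells in the same order (9, 9 and 0 at 2-fold). At 3-fold these were 2, 7 and 1, then 4 and 5.

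Limma called 0 of 19938 genes in each of the 6 comparisons, hence 0 of the 10 and 0 of the 80. At an unadjusted p under 0.05 it held 6, 6, 5, 6, 5 and 3 of the 10 in that order and 26, 31, 23, 28, 33 and 26 of the 80, where 26.8%, 31.3%, 26%, 24.5%, 29.7% and 14.6% of all genes passed. The lowest adjusted p of the 10 by limma was 0.109, and that fit rests on 1 residual degree of freedom.

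Leaving out either co-injection array left every count of the 10 as it was. Of 240 alternative values of the members' differences, 6 changed sign, all where the difference was at most 0.04 (Bmp2, Bmpr1a, Smad6 and Smad7), and 0 where it was past 2-fold. The values from the mean over probe sets and from limma could not differ, since each gene had 1 probe set and limma fits the same difference. Only cyclic loess and leaving out a co-injection array could move a value. Under cyclic loess 7 of the values moved by more than the SD of the co-injection pair, all of Bmp2 and Bmp4, and the median of all genes shifted by at most 0.08. No paired analysis was possible because no condition but co-injection has a second array.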
